A study of Mus musculus with 2 samples.

Results

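The testis-specific serine kinase genes Tssk1 to Tssk6 encode a family of protein kinases made mainly in haploid male germ cells. They were chosen by name, as every probe that the promoter arrays assign to one of the 6 genes or to a synonym. They are 6 of 17342 genes with a measured window, counting a gene once per array, and were covered by 115 probes, of which 113 were used out of 454681. Germ cells of 5 testes of adult male C57BL/6 mice, with no genotype or treatment named, were fixed and sonicated, and their chromatin was pulled down with anti-CREM or, as the control, with goat IgG. The CREM precipitate carried Cy5 and the IgG precipitate Cy3 on both arrays of a set of 2, which share no probe. Tssk3 and Tssk6 lay on array 1, and Tssk1, Tssk2, Tssk4 and Tssk5 on array 2. There was 1 hybridisation per array and dyes were not swapped: antibody and dye cannot be told apart, and no spread between samples and no p-value exist.

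TSSK proteins phosphorylate substrates in round and elongating spermatids, the cells that remodel their nucleus and build the sperm tail. In mice, loss of Tssk1 together with Tssk2, or loss of Tssk6, leaves males infertile. CREM belongs to the CREB family of transcription factors and drives gene expression after meiosis in the male germ line. It binds the cAMP response element TGACGTCA or its core TGACG. The arrays were therefore used to ask whether CREM chromatin was enriched over IgG along the Tssk loci. Ratios are log2 of processed CREM signal over processed IgG signal, centred on the median of each array, so 0 is the typical probe and 1 is a 2-fold excess in the CREM channel. The error given with a probe is that of the scanner's own error model, which does not cover a repeated precipitation.

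The starts of 5 of the 6 genes could be placed by matching probes to RefSeq promoter sequences (GRCm38.p6), which run from 250 bases before the start to 50 after it. The 3 promoters that hold the core or a variant of the element, TGACNTCA (N is any base), on either strand are shown, with the matches in capitals.
Tssk1 promoter, plus strand of chr16:17893953-17894252 (GRCm38.p6): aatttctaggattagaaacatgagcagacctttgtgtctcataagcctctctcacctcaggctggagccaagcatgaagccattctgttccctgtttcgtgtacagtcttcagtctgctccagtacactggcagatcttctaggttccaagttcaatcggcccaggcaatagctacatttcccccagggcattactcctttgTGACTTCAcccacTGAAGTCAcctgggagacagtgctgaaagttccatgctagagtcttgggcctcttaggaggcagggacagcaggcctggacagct
Tssk2 promoter, plus strand of chr16:17898387-17898686 (GRCm38.p6): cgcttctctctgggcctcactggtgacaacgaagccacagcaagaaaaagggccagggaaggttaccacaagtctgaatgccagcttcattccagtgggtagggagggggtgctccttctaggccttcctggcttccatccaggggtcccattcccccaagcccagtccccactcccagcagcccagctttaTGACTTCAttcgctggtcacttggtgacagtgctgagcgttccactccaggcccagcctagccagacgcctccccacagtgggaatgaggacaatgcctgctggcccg
Tssk6 promoter, plus strand of chr8:69901934-69902233 (GRCm38.p6): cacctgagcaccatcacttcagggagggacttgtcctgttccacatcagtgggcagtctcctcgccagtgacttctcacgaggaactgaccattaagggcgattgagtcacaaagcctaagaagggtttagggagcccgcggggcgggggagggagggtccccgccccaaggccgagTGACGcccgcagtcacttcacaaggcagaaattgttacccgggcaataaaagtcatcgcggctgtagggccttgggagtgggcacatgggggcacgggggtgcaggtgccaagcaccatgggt
None of the 5 promoters held the full element TGACGTCA, which 1.79% of 32851 RefSeq promoters hold on either strand. The core, searched as TGACG or CGTCA, was found in 1 of 5, at 73 bases before the Tssk6 start, against 20.8% of all promoters. The variant TGACNTCA includes the full element and was searched after the sequences had been read. Tssk1 held it at -48 as TGACTTCA and at -35 as TGAAGTCA, its reverse complement, and Tssk2 held it at -58 as TGACTTCA. Of all promoters, 8.83% hold it. Because the variant was chosen after these promoters had been read, the 2 of 5 that match cannot be weighed against that share. These letters are a description of the windows shown and say nothing about binding elsewhere. The Tssk2 match lay inside a used probe, at 0.08 with an error of 0.23, which is within the error of 0. The Tssk1 matches and the core in the Tssk6 promoter lay inside no probe.

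Tssk2 and Tssk4 had a stretch of 3 neighbouring probes whose median reached a log2 ratio of 1 on the CREM side. Those 2 of 6 genes compare with 34.4% of all genes called the same way, and with 35.7% of the 9956 genes that had as many windows as the members (9 to 24). The share was therefore near that of genes in general. On the IgG side, with the lowest window at -1 or less, 0 of 6 Tssk genes were called, against 33.6% of all genes and 30.0% of those with as many windows. Windows count here by the array's name for the middle probe, which matters at Tssk6 (below). The members' highest windows had a median of 0.91, against 0.77 for all genes. That 0.91 lies between Tssk1 at 0.85 and Tssk6 at 0.97, whose windows rest on IgG signals not well above background. With such probes at a bound (defined under Tssk2), Tssk1 had -0.15, Tssk6 0.45 and Tssk5 0.19. No such bounds are given for all genes, so the medians of 0.91 and 0.77 show no excess of the family. The members' lowest windows had a median of -0.31, against -0.76 for all genes. The 6 highest windows ran from 0.71 to 1.40 and the 6 lowest from -0.69 to -0.10.

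**Figure D1:**
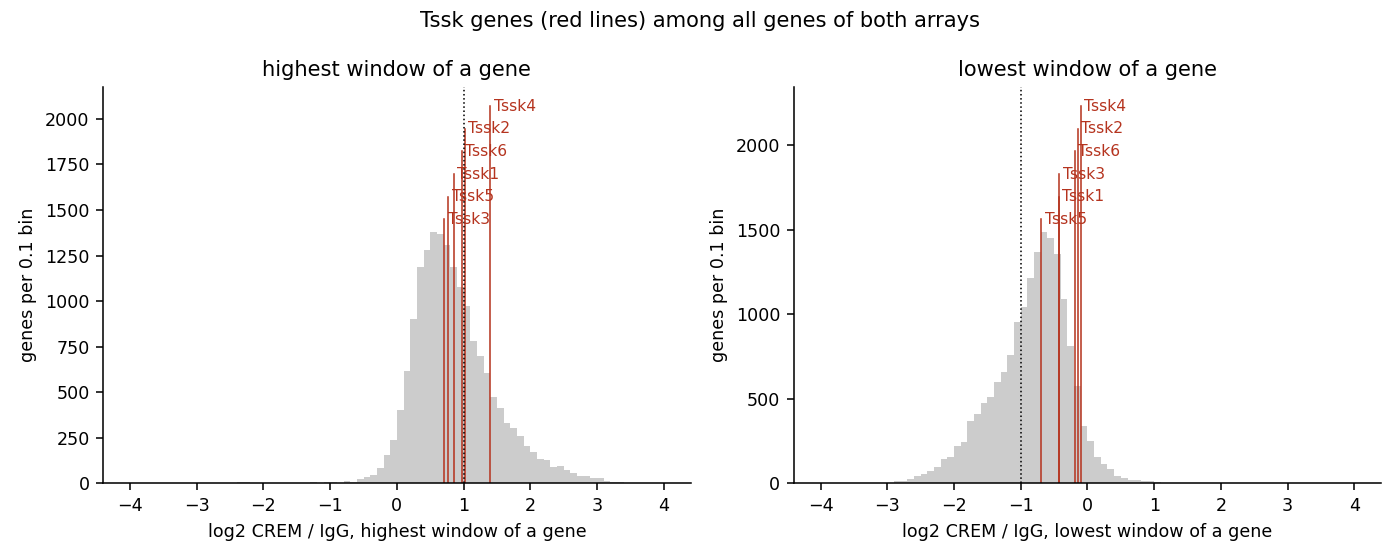
Highest window (left) and lowest window (right) of each Tssk gene as red lines over the number of all genes per bin of log2 CREM over IgG (grey bars); dotted lines mark the call at 1 and -1. Tssk4 at 1.40 and Tssk2 at 1.02 pass the call on the left, and no Tssk gene lies below -0.69 on the right.

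Tssk4, whose product phosphorylates the sperm tail protein ODF2 in mice, had the highest window of the family. Its 3 probes had processed CREM signals of 1710, 4540 and 1910, with IgG signals of 638, 2100 and 582. The log2 ratios were 1.40 ± 0.26, 1.09 ± 0.23 and 1.70 ± 0.27 (± scanner error), so every probe of the window lay above 1. CREM and IgG signals were both well above background at each of them. The window covered chr14:56269273-56269627 (mm9), and its probe middles lay 277 to 576 bp downstream of the start. Its value of 1.40, or 2.65-fold, ranked 1558 of 8670 genes on the array. The probes that carry it are shown as synthesised, and none holds an element or its core.
Tssk4 probe, chr14:56269273-56269323 (mm9): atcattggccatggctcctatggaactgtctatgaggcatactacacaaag
Tssk4 probe, chr14:56269439-56269498 (mm9): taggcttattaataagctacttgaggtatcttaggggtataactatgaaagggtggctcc
Tssk4 probe, chr14:56269568-56269627 (mm9): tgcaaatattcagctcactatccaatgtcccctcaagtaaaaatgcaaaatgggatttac
Both windows that overlap this one by 2 probes had 1.09, and with Tssk2 they make up the 4 called windows among 91 of the family, against 5.99% of all windows. At -1 or less stood 0 of the 91, against 4.56% of all windows. Both counts assign a window by the array's name for its middle probe. On the side of the start the ratio was lower: the next probe, 119 bp downstream of it, had -0.73 ± 0.22. The start of Tssk4 itself rests on a match of 33 bases to a single probe. The lowest used probe of the gene, 2247 bp downstream, had -1.35 ± 0.43. Another probe at 1.14 ± 0.26 lay at -2022 bp from the start, with 0.26 ± 0.27 at its nearest measured neighbour.

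Tssk2 stood just past the call. The probes of its highest window had CREM signals of 2150, 18200 and 3530 and IgG signals of 919, 9540 and 1720, all well above background. Their log2 ratios of 1.20 ± 0.24, 0.92 ± 0.22 and 1.02 ± 0.23 were alike within the scanner error. This window lay at -1452 to -1122 bp from the start (chr16:17897253-17897634, mm9), and the following probe, at -958 bp, had 0.89 ± 0.23. With windows of 5 probes its value was 0.92 and with the GC trend of the array removed 0.91, both short of the call. Its 3 probe sequences hold no element or core.
Tssk2 probe, chr16:17897253-17897304 (mm9): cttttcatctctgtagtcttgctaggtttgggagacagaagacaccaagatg
Tssk2 probe, chr16:17897413-17897466 (mm9): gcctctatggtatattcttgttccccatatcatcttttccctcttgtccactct
Tssk2 probe, chr16:17897581-17897634 (mm9): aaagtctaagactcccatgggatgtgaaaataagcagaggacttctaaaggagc
The highest single probe of Tssk2, at -367 bp, had 1.89 ± 0.61 from a CREM signal of 294 and an IgG signal of 78.2. Its IgG signal was not well above background, so the ratio is a bound. Here and below such a bound sets the CREM signal against the higher of the probe's own IgG signal and the lowest IgG signal well above background on that array. It came to at least 1.01-fold for this probe.

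Tssk1 lies on the same strand, with its start 4434 bp upstream of that of Tssk2. Its highest window had a median of 0.85 from 3 probes that disagreed, at -0.15 ± 0.33, 3.54 ± 0.52 and 0.85 ± 0.56 (chr16:17894275-17894695, mm9). The CREM signals were 337, 737 and 243, and the IgG signals 370, 62.5 and 133, with IgG well above background at the first probe alone. The probe at 3.54, 206 bp downstream of the start, was the highest of the family and amounts to at least 2.53-fold. With both dim probes at their bound the window's median was -0.15, so the median showed no measurable excess of CREM over IgG at this brightness. Near the end of the gene, 1237 bp from the start, a bright probe had -1.09 ± 0.23.

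Tssk3 and Tssk5 were not called. Tssk3 had 0.71 across its start, from probes at 0.53 ± 0.22, 1.06 ± 0.23 and 0.71 ± 0.23 with CREM signals of 2390, 2800 and 1520 and IgG signals of 1630, 1320 and 917 (chr4:129167579-129168074, mm9). All 3 were above 0 by more than their error, and the gene ranked 4662 of 8672. Tssk5 had 0.77 from probes at 0.80 ± 0.88, 0.19 ± 0.27 and 0.77 ± 0.22 (chr15:76205260-76205895, mm9). The first of these had an IgG signal of 79.6, not well above background, and with it at its bound the median was 0.19. Its 30 used probes were the most of any member and had the lowest median, 0.10. A single probe of Tssk5, chr15:76208378-76208437, reached 1.65 ± 0.28 with a CREM signal of 1320 and an IgG signal of 415, while the probe measured before it had 0.02 ± 0.20. Probe medians of the others were 0.53 for Tssk3, 0.45 for Tssk2, 0.26 for Tssk4 and 0.20 for both Tssk1 and Tssk6.

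Tssk6, a kinase needed for the compaction of sperm chromatin in mice, had its lowest ratios inside the gene. The 4 probes within 600 bp upstream, all named for Tssk6, had measured ratios of 0.56 to 1.34 and a mean GC content of 45.2%, but IgG was not well above background at any of them. As bounds, those at -468 and -312 bp amount to at least 1.70-fold and 1.37-fold, and the other 2 show no measurable excess. The next probe upstream, at -669 bp and bright in both channels, had -0.29 ± 0.22. The 7 probes within the 1335 bases that RefSeq gives as the length of the gene had ratios of -2.81 to -0.20 with a median of -1.23 and a mean GC content of 52.7%, and the 4 of them at -1 or less were well above background in both channels. All 7 are named for Ndufa13 on the array, a subunit of respiratory complex I whose RefSeq start lies 164 bp upstream of the Tssk6 start on the opposite strand. Counting those probes for Tssk6 by position gives the gene a lowest window of -1.87 in place of -0.19, and 1 of 6 members is then called on the IgG side. Probes named Tssk6 that lie more than 164 bp upstream of its start are on the side that Ndufa13 runs from its own start. This count by position left them with Tssk6. The lowest of the 7 probes named for Ndufa13, 850 bp downstream of the Tssk6 start, is shown with its CG pairs in capitals.
Tssk6 locus probe named Ndufa13, chr8:72426911-72426955 (mm9): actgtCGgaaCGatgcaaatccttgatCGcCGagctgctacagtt
The highest Tssk6 window, at 0.97, came from 3 upstream probes at 0.77 ± 0.32, 0.97 ± 0.39 and 1.34 ± 0.94 (chr8:72425592-72425963, mm9). Their CREM signals were 528, 425 and 159 and their IgG signals 305, 213 and 61.5, and none of the 3 IgG signals was well above background. As a bound the window amounts to at least 1.37-fold. The probes of this window at -468 and -312 bp lie past the Ndufa13 start, on the side that gene runs, so their assignment to Tssk6 rests on the array's name. The first of the window's probes holds the core, in capitals, and lies at -468 bp.
Tssk6 probe, chr8:72425592-72425638 (mm9): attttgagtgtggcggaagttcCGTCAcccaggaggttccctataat
It is 1 of 2 among the 115 probes named for Tssk genes with the core, beside a Tssk2 probe at 0.54 ± 0.21, and 2.08% of all probes hold it. None of the 115 held the full element, against 0.057% of all probes.

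**Figure D2:**
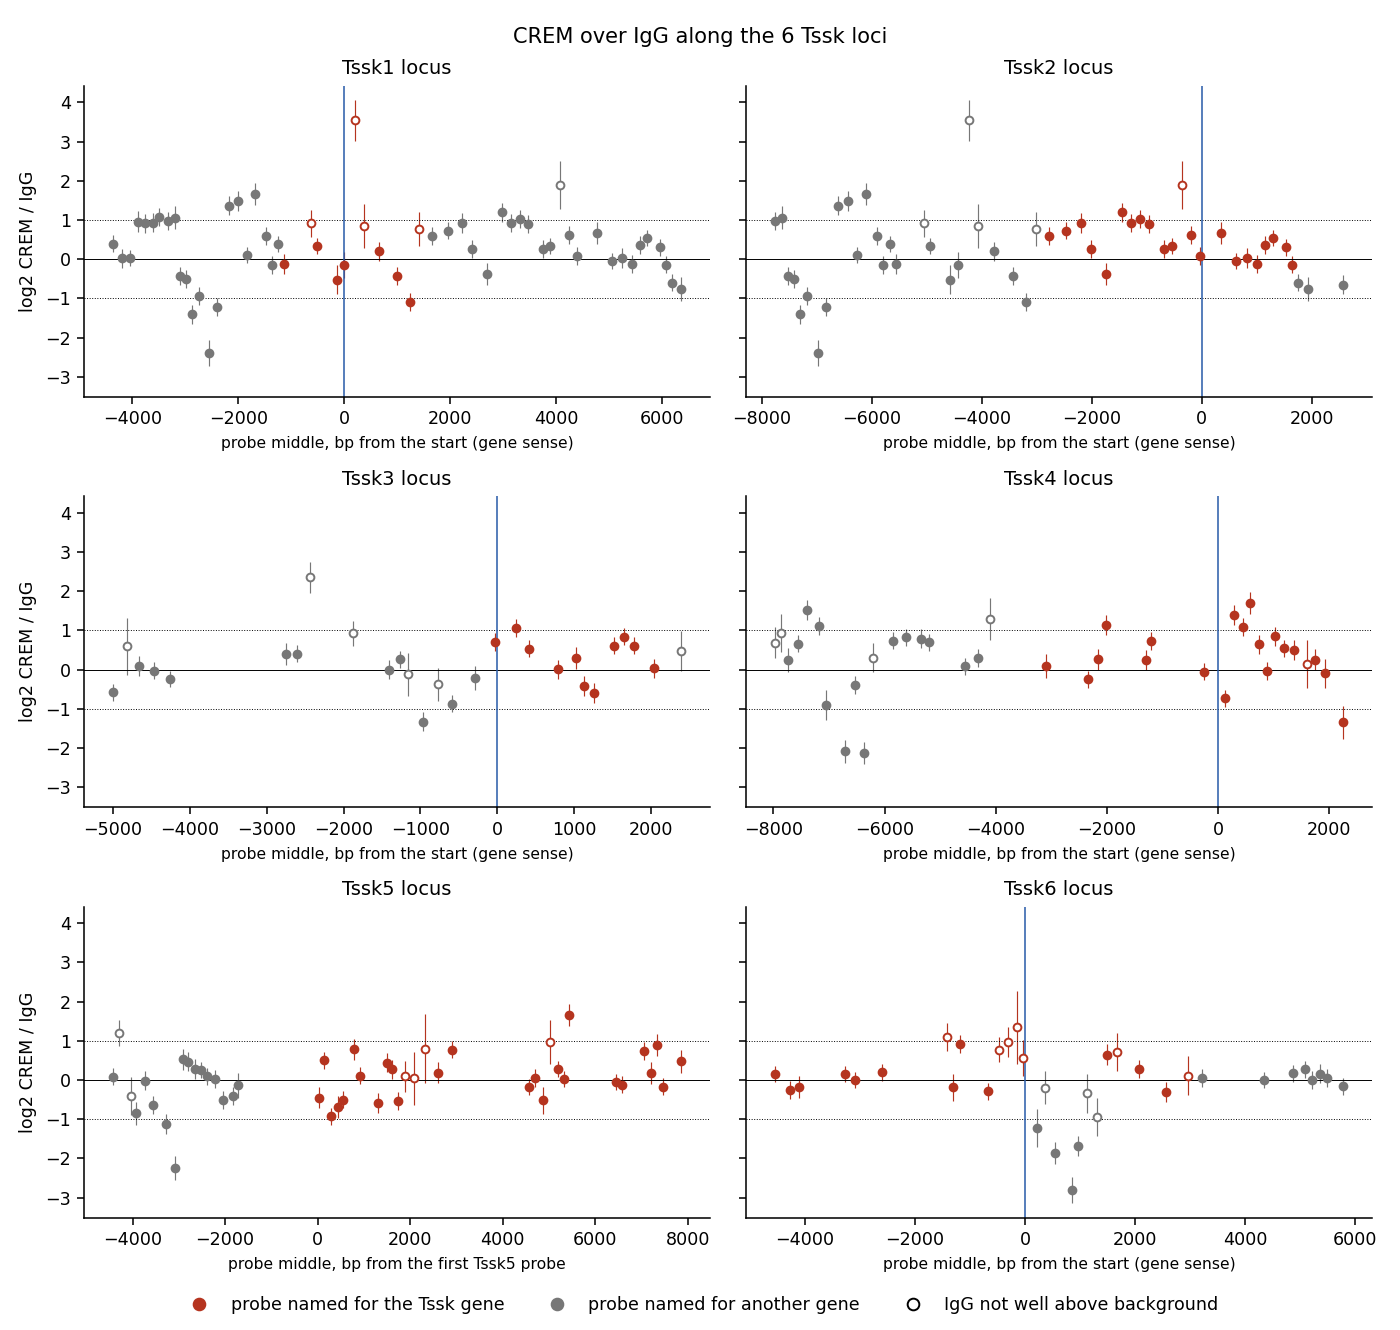
Log2 CREM over IgG of each used probe (points, bars are scanner errors) against the distance of its middle from the gene's start, or from the first Tssk5 probe, for probes named for the Tssk gene (red) and for other genes within 5000 bp (grey); open points have an IgG signal not well above background. Tssk4 shows 3 neighbouring filled points above 1 just after its start, and at Tssk6 the grey points after the start go down to -2.81.

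**Figure D3:**
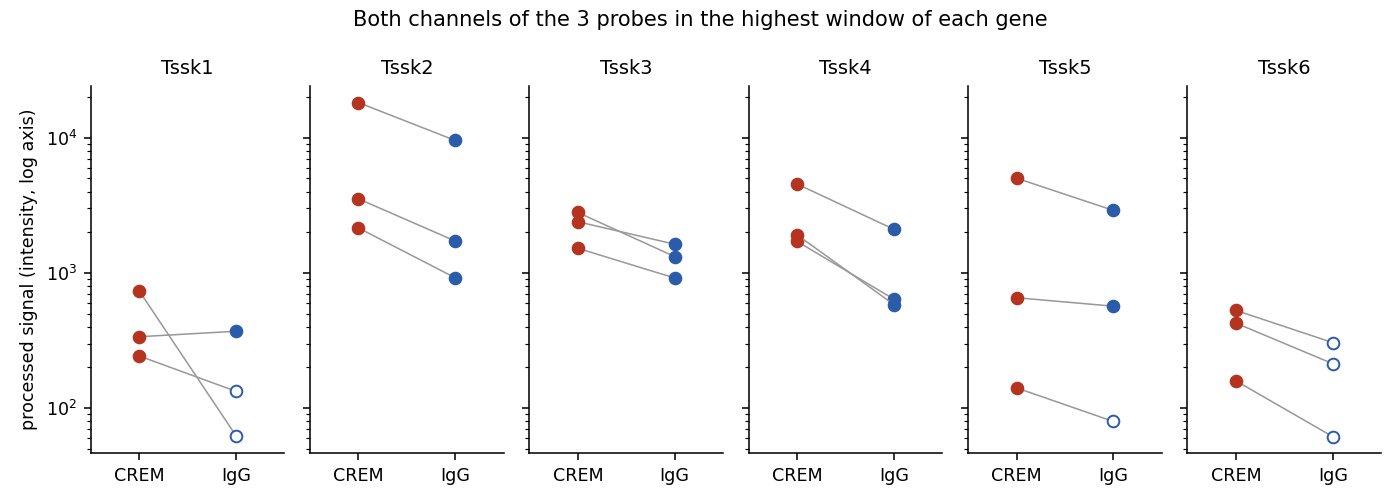
Processed signals (log axis) of the 3 probes in each gene's highest window, CREM left and IgG right, joined by probe; open IgG points are not well above background. The Tssk4 and Tssk2 windows rest on bright probes, while all 3 IgG points of Tssk6, from 61.5 to 305, are open.

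Over the whole family, 12 of 113 used probes (10.6%) had a ratio of 1 or more, against 9.45% of all probes, and 4 of the 12 had an IgG signal not well above background. At -1 or less stood 2 probes (1.77%), against 6.52% of all probes. The 7 probes inside Tssk6 that are named for Ndufa13 are not among the 113, and 4 of those 7 stood at -1 or less. The family's shares and median given here depend on that naming. The median ratio was 0.26 for Tssk probes and 0 for all probes, and 79 of 113 lay above 0. Ratios fell with GC content along the probes of the family as across the arrays: Pearson's r was -0.44 over the 113 probes and -0.41 over all, over probes that share an array and lie close together. The Tssk probes had a mean GC content of 44.3%, against 42.4% for all. With the median of each GC bin removed, the median of the family was 0.25. The promoters themselves ranged in GC content from 43.3% at Tssk4, with 2 CpG pairs, to 60.7% at Tssk6, with 14.

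**Figure D4:**
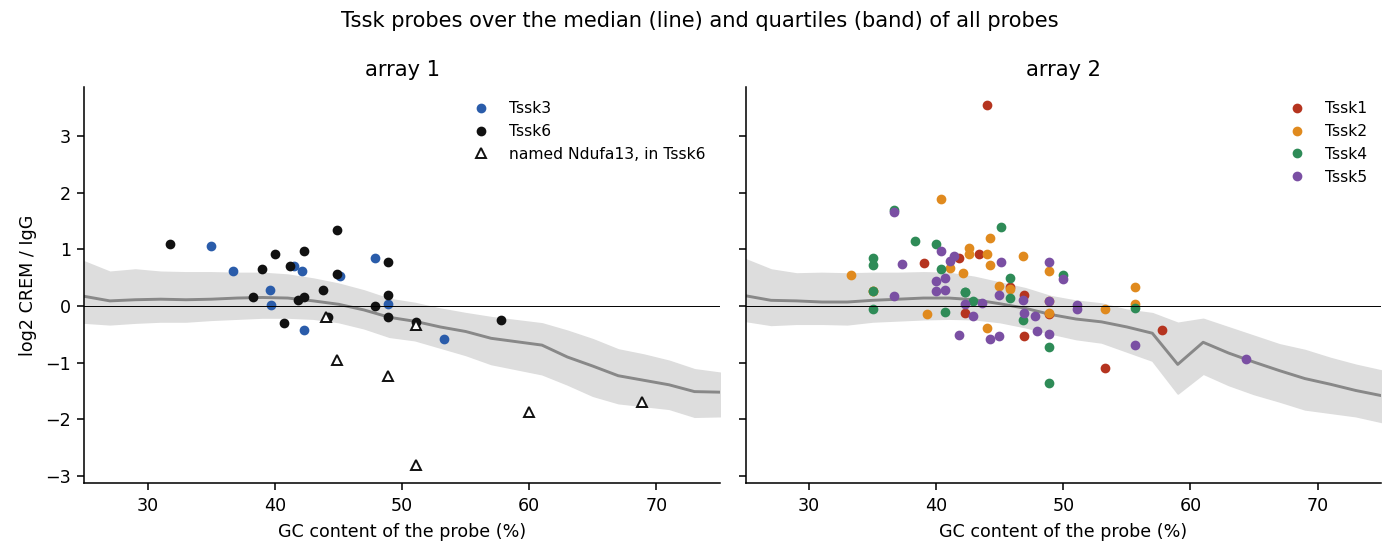
Log2 CREM over IgG against the GC content of the probe for Tssk probes (points, coloured by gene) and probes named Ndufa13 inside Tssk6 (open triangles), over the median and quartiles of all probes of the array (line and band). The median of all probes goes down with GC content, and the Tssk6 probe at -2.81 lies far under the band.

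Genes beside the family, by the names the array gives, had low windows of differing GC content. Dgcr2, whose start lies 2475 bp upstream of that of Tssk1 on the opposite strand, had a lowest window of -1.41 with a mean GC content of 63.7% and a highest of 1.48 (chr16:17892267-17892650, mm9). Tm9sf1, upstream of Tssk4 and facing away from it, had -2.09 at 63.0% GC. Its highest window, 1.68 with IgG well above background at 1 of 3 probes, lay beyond 5000 bp from the Tssk4 probes (chr14:56254705-56255105, mm9). Fam229a, whose start lies 420 bp upstream of that of Tssk3 on the opposite strand, had -0.87 at 60.0% GC and a highest of 0.41. Hgh1 beside Tssk5 had -1.13 at 60.0% GC and a highest of 0.47. Ndufa13, whose probes lie inside Tssk6 by position, had -1.87 at 51.7% GC and a highest of -0.20, and the probe at -2.81 shown above has a GC content of 51.1%. Probes on the side that Ndufa13 runs from its start are named Tssk6 and count in neither of these windows. Ess2, Bsdc1 and Gatad2a also have probes within 5000 bp, but the highest and the lowest window of each lay farther off. As highest and lowest windows, in mm9, Ess2 had 1.93 and -1.95 (chr16:17911165-17911598 and chr16:17914619-17914987), and Bsdc1 had 1.57 and -0.18 (chr4:129138895-129139377 and chr4:129140820-129141273). Gatad2a had 1.27, with 0 of 3 IgG signals well above background, and -1.53 (chr8:72519015-72519467 and chr8:72519415-72520211). With the median of each GC bin removed, the probes of the lowest window had 0.08, -0.58 and -1.55 at Dgcr2. They had -1.61, 0.59 and -1.01 at Tm9sf1, and 0.04, 0.07 and -0.43 at Fam229a. At Hgh1 they had -0.0, -0.65 and -1.41, and at Ndufa13 -0.23, -1.18 and -2.54. The part of GC content in these values was not tested.

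Genes of known partners of the kinases were read in the same way, from a list of 8. Of the 7 with a window, 4 were called on the CREM side, against 34.4% of all genes, and their median was 1.00. These 7 genes had 10 to 36 windows each, and the share among genes with as many windows was not computed. Hsp90ab1, a chaperone of the HSP90 class that TSSK proteins depend on, was the highest at 2.69, from probes at 0.43, 2.69 and 4.58 (chr17:45710098-45710686, mm9). The probe at 4.58 had an IgG signal of 110, not well above background, and the median is 2.69 with it at its bound too. Tsks, a substrate of Tssk1 and Tssk2, had 1.00, and Odf2, the tail protein phosphorylated by Tssk4, had 1.03, both from probes well above background in both channels. Spag16, a protein of the sperm axoneme, had 1.41 from probes at 1.84, -0.45 and 1.41, but IgG was well above background at 1 of them, and with the dim probes at their bound the median was -0.23. Hsp90aa1 had 0.72, the upstream kinase gene Pdpk1 0.48 and Creb1 0.62, with IgG well above background at 1 of its 3 probes. On the IgG side Creb1 had -2.14, Hsp90aa1 -1.98 and Odf2 -1.30, so 3 of 7 were called there, against 33.6% of all genes. Tsacc, a cochaperone of the kinases, had no window of 3 probes at a gap of at most 500 bp and was not measured there. A gap of 1000 bp gave it one, with 5 of 8 partners then called.

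**Figure D5:**
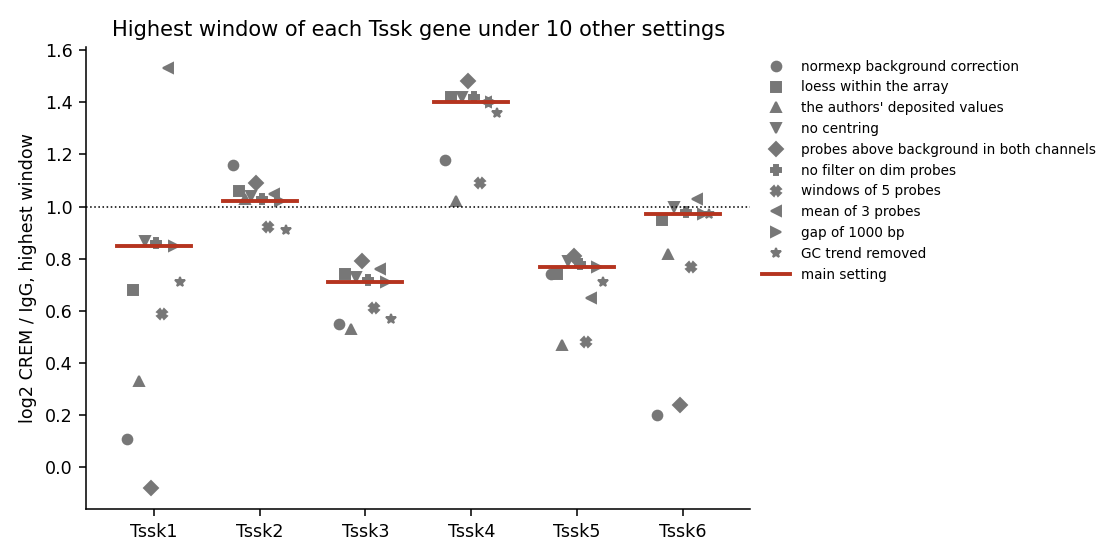
Highest window of each Tssk gene as reported (red bars) and under 10 other ways of processing (grey symbols), as log2 CREM over IgG; the dotted line marks the call. Tssk4 stays between 1.02 and 1.48, while Tssk1 spreads from -0.08 to 1.53.

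Across 10 other ways of processing, Tssk4 stayed at 1 or more, between 1.02 and 1.48, and a stricter threshold of 1.5 left no member called. Tssk2 lay between 0.91 and 1.16, Tssk3 between 0.53 and 0.79, and Tssk5 between 0.47 and 0.81. Tssk1 and Tssk6, whose windows rest on dim IgG probes, had -0.08 and 0.24 when only probes well above background in both channels were used. The number of arrays limits the precision of every value.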

How the data were processed

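Per the file headers, Agilent Feature Extraction 10.7.1.1 quantified both arrays, with positions in mm9. The deposited scanner files give each spot's processed signal as an intensity, background-subtracted and dye-normalised, per the file headers, with flags and a log10 ratio that carries an error. The authors' deposited table holds log2 ratios, which mean signal minus median background followed by limma's within-array loess returned with a correlation of 1. R 2.10.1 and limma are the tools named in the submitters' processing notes.

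Control spots, outliers, probes without a position and probes dim in both channels were left out, which left 228277 of 237195 probes on array 1 and 226404 of 237185 on array 2. CREM was well above background at 96.3% and 95.5% of probes, and IgG at 77.4% and 78.5%. Log2 ratios were centred on the array median (0.02 on both). Runs of 3 adjacent probes, with no gap over 500 bp between starts, formed windows, each valued at the median of its probes. A gene took its highest and lowest window by the name of the middle probe. Spots of control probes, present at least 12 times and bright in at least 1 channel, had a median SD of 0.14 (3 probes) on array 1 and 0.10 (5 probes) on array 2, and the median probe error was 0.25. Values that moved by more than this SD under another setting are given below as moved.

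RefSeq tables of GRCm38.p6 gave promoters, lengths and current names. 5 of 6 members had a promoter entry. Without an mm9 annotation in use, positions are given relative to starts and not to exons. The members, the list of partners and the settings were chosen with earlier results of these data known. Named were the 6 members, every measured partner and every gene the array names within 5000 bp of a member probe. Settings tried were loess, no centring, the authors' values, normexp correction with an offset of 50, stricter and looser filters on dim probes, windows of 5 probes, the mean of 3 probes, a gap of 1000 bp, removal of the median of each 2% GC bin and a threshold of 1.5. Assigning Tssk6 probes by position was added after seeing the data. Window calling was run on simulated data, made from GC-corrected ratios that were shuffled and given random signs. Such data lack the order of the real ratios along the genome, so they do not measure how often the calls above are wrong. R 4.3.3 with limma 3.58.1 and Python 3.11.15 were used.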

Additional observations from a re-analysis of the deposited data

How the results depend on the processing

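With 1 array per gene and no replicate, none of these values has a test, dye and antibody cannot be told apart, and probes with dim IgG give only bounds. No paired analysis was possible because each array is a group of 1 sample and the arrays share no probe. The count of 2 Tssk genes on the CREM side was 1 with windows of 5 probes (19.8% of all genes), 1 with the GC trend removed (30.7%), 4 with the mean of 3 probes (33.6%) and 0 at a threshold of 1.5 (14.1%), and stayed 2 in the others, where the share of all genes ran from 16.2% with normexp, 17.3% with the authors' values and 20.8% when both channels had to be above background to 35.7% without centring. The count of 0 on the IgG side stayed 0 in all planned settings, where the share of all genes was as low as 3.7% with normexp, 12.6% with the GC trend removed and 13.5% at the threshold of 1.5. It became 1 when Tssk6 probes were assigned by position, a choice made after seeing the data. The 4 of 7 partners called became 2 with normexp, the authors' values, probes above background in both channels, windows of 5 probes and the GC trend removed, and 1 at the threshold of 1.5, settings in which the share of all genes was lower as well (14.1% to 30.7%). They became 3 with the mean of 3 probes (33.6%) and 5 of 8 with a gap of 1000 bp (35.7%), which gives Tsacc a window.

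Among the highest windows, normexp moved Tssk1 to 0.11, Tssk2 to 1.16, Tssk3 to 0.55, Tssk4 to 1.18 and Tssk6 to 0.20. The authors' values moved Tssk1 to 0.33, Tssk3 to 0.53, Tssk4 to 1.02, Tssk5 to 0.47 and Tssk6 to 0.82. Loess moved Tssk1 to 0.68. Probes above background in both channels moved Tssk1 to -0.08 and Tssk6 to 0.24. Windows of 5 probes moved Tssk1 to 0.59, Tssk4 to 1.09, Tssk5 to 0.48 and Tssk6 to 0.77. The mean of 3 probes moved Tssk1 to 1.53 and Tssk5 to 0.65, and removal of the GC trend moved Tssk1 to 0.71 and Tssk2 to 0.91. The causes were not tested.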
